A study of Mus musculus with 6 samples.

Results

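The insulin-like growth factor (IGF) system was examined through 8 genes, chosen by symbol from the 22851 rows of the deposited count table: the ligand gene Igf1, the receptor gene Igf1r and the binding protein genes Igfbp2, Igfbp3, Igfbp4, Igfbp5, Igfbp6 and Igfbp7. All 8 had enough counts to be tested. RNA came from radial glial cells, progenitors found along the ventricles of the newborn brain, taken from the brains of C57BL/6J pups 0 to 3 days old, either wild type (WT) or with Edf1 knocked out by CRISPR/Cas9 (Edf1 KO). In both genotypes the cells were grown in DMEM with 10% fetal bovine serum and then kept for 6 days without serum to form multiciliated ependymal cells, and 3 libraries were sequenced from each genotype. The labels give neither the deleted part of Edf1 nor how many pups went into a culture. The question was which genes depend on Edf1 during this differentiation.

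IGF1 and IGF2 are secreted growth factors that signal through the receptor tyrosine kinase encoded by Igf1r, mainly by way of the PI3K-Akt and Ras-ERK pathways. The binding proteins hold the ligands outside the cell, where they can prolong their half-life, keep them from the receptor or, after cleavage by proteases such as pappalysin, release them. In the developing brain IGF signalling is known to support the growth of neural progenitors, and several binding proteins are made by glia, meninges and blood vessels. Serum is itself a source of IGFs.

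Total counts per library were 13071766 to 28087006, with ranges that overlapped between the genotypes. Edf1, the targeted gene, stood at 80.2 to 85.9 CPM (read counts scaled to the library total) in the WT libraries and at 9.84 to 13.2 CPM in the knockout. Over all genes tested, 26.9% were called changed (edgeR's quasi-likelihood test, adjusted p below 0.05), 12.7% higher and 14.2% lower in the knockout, and 43.3% had no overlap between the groups in CPM. The log2 fold change (LFC, knockout minus WT) had a median of 0.0029 over all tested genes. WT replicate 2, the library with the fewest counts, stood apart from the other WT libraries on the second principal component, which held 16.1% of the variance. All 12 tested markers of ependymal cells were detected and called lower in the knockout, led in abundance by Foxj1 at 788 ± 43.4 CPM (WT) and 523 ± 10.3 CPM (knockout) (SD, n = 3 each). In RNA from a whole culture, fewer cells of a type and less RNA per cell cannot be told apart.

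Of the 8 genes, 5 were called higher and 2 lower in the knockout, set against the 26.9% of all tested genes that were called in either direction. The 8 genes were chosen with earlier results of these data known, so the count describes them and no more. Igf1r, Igfbp2, Igfbp3, Igfbp5 and Igfbp7 rose by 1.28- to 1.53-fold, Igf1 and Igfbp4 fell, and Igfbp6 did not pass the threshold. The groups did not overlap in CPM for any of the 8 genes, where 43.3% of all tested genes show no overlap. The median LFC of the 8 genes was 0.43.

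The promoters of 4 of these genes are shown because they belong to the pair of neighbouring genes that rose, Igfbp2 and Igfbp5, and to the 2 genes that fell, Igfbp4 and Igf1. Each covers 250 bases before and 50 bases after the annotated start, 300 bases in all, 5′ to 3′ on the gene's strand, from RefSeq on GRCm38.p6, where all 8 genes were matched. Igfbp2 lies at chr1:72824230-72824529 on the plus strand, the first of 2 starts listed for it, and Igfbp5 at chr1:72874816-72875115 on the minus strand. The promoter of Igfbp4 is at chr11:99040994-99041293 and that of Igf1 at chr10:87860861-87861160, both on the plus strand. Capitals mark matches, on either strand, to 4 short motifs. They are the TATA box, spelled TATAAA, and the GC box, a common element of CpG-rich promoters, spelled GGGCGG. The other two are the CCAAT box, whose name is its spelling, and the half-site recognised by many nuclear receptors, which Edf1 is known to coactivate, spelled AGGTCA.
Igfbp2 promoter: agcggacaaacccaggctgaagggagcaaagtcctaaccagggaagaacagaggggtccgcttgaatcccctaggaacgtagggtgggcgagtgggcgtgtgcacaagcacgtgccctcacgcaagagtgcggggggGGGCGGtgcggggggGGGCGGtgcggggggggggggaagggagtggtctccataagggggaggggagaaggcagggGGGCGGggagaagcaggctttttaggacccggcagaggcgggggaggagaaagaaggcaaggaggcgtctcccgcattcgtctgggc
Igfbp5 promoter: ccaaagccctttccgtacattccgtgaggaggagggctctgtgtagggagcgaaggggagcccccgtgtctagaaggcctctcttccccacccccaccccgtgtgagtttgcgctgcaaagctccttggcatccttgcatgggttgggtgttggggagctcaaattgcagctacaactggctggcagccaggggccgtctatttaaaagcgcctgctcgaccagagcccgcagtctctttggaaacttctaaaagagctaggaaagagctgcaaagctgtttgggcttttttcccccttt
Igfbp4 promoter: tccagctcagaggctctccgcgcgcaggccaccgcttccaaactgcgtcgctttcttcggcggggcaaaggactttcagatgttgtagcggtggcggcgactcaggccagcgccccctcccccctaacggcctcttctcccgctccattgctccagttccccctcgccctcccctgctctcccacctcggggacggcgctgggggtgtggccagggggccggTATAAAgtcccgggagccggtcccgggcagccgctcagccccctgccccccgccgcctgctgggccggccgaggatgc
Igf1 promoter: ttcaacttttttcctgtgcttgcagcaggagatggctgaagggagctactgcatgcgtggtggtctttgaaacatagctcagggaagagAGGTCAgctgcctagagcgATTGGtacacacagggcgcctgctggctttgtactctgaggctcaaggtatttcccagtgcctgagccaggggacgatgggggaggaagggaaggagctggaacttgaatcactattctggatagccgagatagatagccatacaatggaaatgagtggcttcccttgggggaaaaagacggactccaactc

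The 4 promoters differ in base composition as well as in these letters. The promoter of Igfbp4 has 27 CpG dinucleotides and that of Igfbp2 has 18, while those of Igfbp5 and Igf1 have 10 and 6, beside a median of 7 over the 32851 promoters of the same length. Igfbp4 has a TATA box that begins 28 bases before the start. Igfbp2 has 3 GC boxes, which begin 113, 98 and 37 bases before its start. In Igf1 the nuclear receptor half-site begins 161 bases and the CCAAT box, on the opposite strand, 142 bases before the start. Among the members whose promoters are not printed, Igf1r, which rose, also has the half-site. It lies on the opposite strand, 86 bases before the start. No printed match overlaps another, and the Igfbp5 window holds none of the 4 motifs. Of all promoters, 13.6% hold the TATA box, 37.4% the CCAAT box, 35.7% the GC box and 16.3% the nuclear receptor half-site. A match is a description of the sequence and not evidence that a factor binds there.

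**Figure D1:**
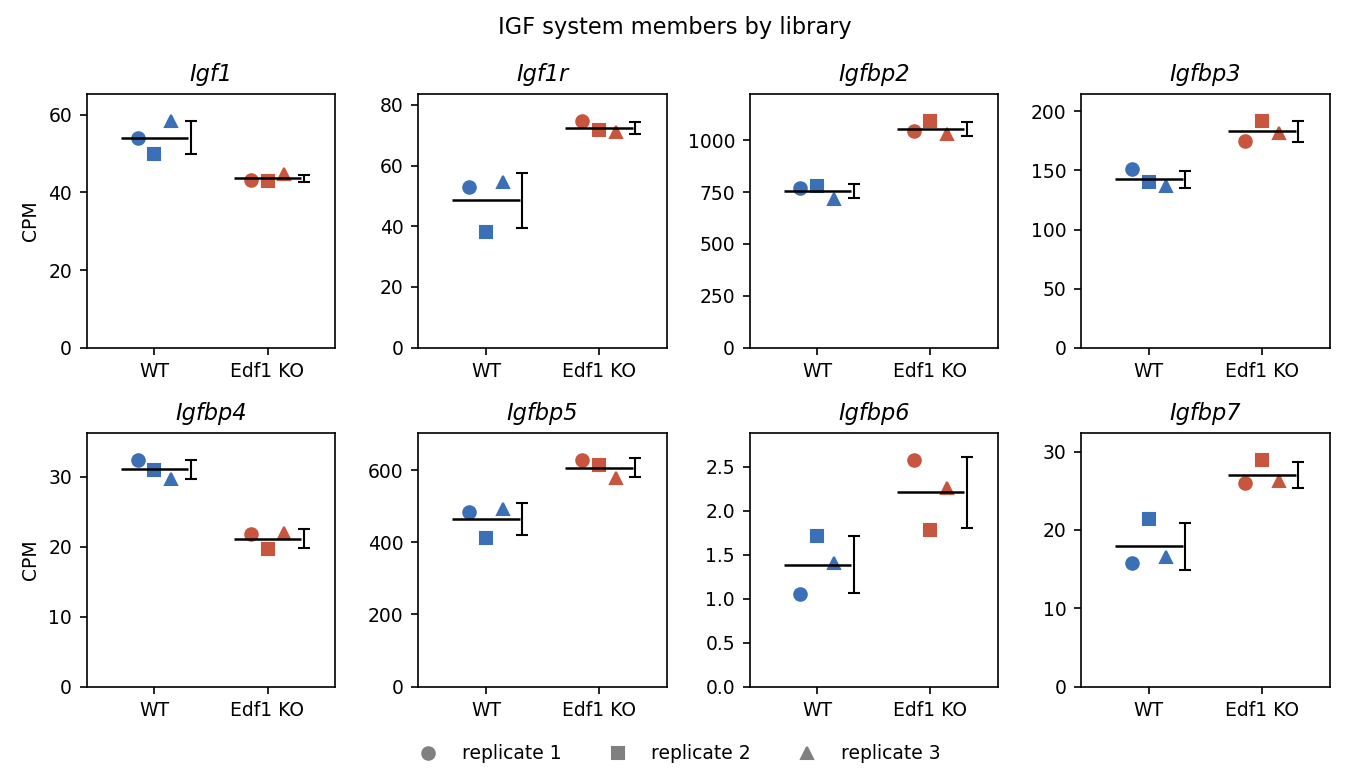
CPM of the 8 genes in each library (y axis from 0; circles, squares and triangles are replicates 1, 2 and 3), with the group mean as a line and the SD as a bar (n = 3). Igf1 and Igfbp4 lie lower in every knockout library than in any WT library, and the other 6 genes lie higher, with the smallest gap for Igfbp6.

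The ligand gene Igf1 fell in the knockout. It had 54.1, 49.9 and 58.5 CPM in WT replicates 1, 2 and 3 and 43.3, 43.0 and 44.7 CPM in the knockout replicates. Every knockout library was below the lowest WT library, WT replicate 2. The level was 1.24-fold lower in the knockout, an LFC of -0.31 (SE 0.067, adjusted p = 0.00434 by edgeR). Igf2, which encodes the second ligand of the family and is known to be made strongly by meninges and choroid plexus, was close to the detection limit, with 12, 10 and 17 counts in WT and 7, 29 and 6 counts in the knockout. Its LFC of 0.025 (SE 0.63) was not called and had no stable sign. Of the insulin genes, Ins1 had no count in any library and Ins2 had 0 to 6 counts. Igf1 was therefore the only ligand gene of the 4 listed that was measured well above the detection limit.

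The receptor gene Igf1r rose. Its level was 53.0, 38.1 and 54.6 CPM in WT replicates 1, 2 and 3 and 74.8, 71.7 and 71.1 CPM in the knockout. WT replicate 2 was the lowest of all, and the 3 knockout libraries lay close together above the highest WT library. The rise was 1.48-fold, an LFC of 0.56 (SE 0.103, adjusted p = 0.00146 by edgeR). Without WT replicate 2 it was 0.43 (SE 0.052), also past the threshold (adjusted p-values over all alternatives 8.39e-07 to 0.0107 by edgeR, DESeq2 or limma). The other 2 tested receptor genes moved the same way. Insr, which encodes the insulin receptor, had 36.6 ± 5.28 CPM (WT) and 46.7 ± 1.41 CPM (knockout), an LFC of 0.34 (SE 0.090, adjusted p = 0.0147 by edgeR). Igf2r, the mannose-6-phosphate receptor that takes up and clears IGF2, had 79.0 ± 10.2 CPM (WT) and 97.7 ± 3.22 CPM (knockout), an LFC of 0.30 (SE 0.080, adjusted p = 0.0149 by edgeR; SD, n = 3 throughout). The calls of Insr and Igf2r were lost without knockout replicate 1 (adjusted p-values 0.0602 and 0.0709 by edgeR) and without knockout replicate 2 (0.0583 and 0.0509). Without WT replicate 2 their LFCs were smaller, at 0.24 and 0.21, though still called. With a correction for GC content and length, chosen after seeing the data, they were 0.23 and 0.19, also called. The insulin receptor-related gene Insrr had at most 2 counts in a library.

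Igfbp2 and Igfbp5 were the 2 most abundant binding protein genes. They are neighbours on chromosome 1, transcribed towards each other with a gap of 5457 bases between them on GRCm38. Igfbp2, a binding protein known from fetal brain, astroglia and choroid plexus, had 772, 779 and 718 CPM in WT and 1043, 1094 and 1030.1 CPM in the knockout, in the order of the replicates. Its 2 groups were far apart compared with their spread, and the LFC was 0.48 (SE 0.048, adjusted p = 1.4e-05 by edgeR), or 1.40-fold. Igfbp5, a binding protein that also attaches to extracellular matrix, had 485, 413 and 493 CPM in WT and 629, 615 and 577 CPM in the knockout. WT replicate 2 was again the lowest library. The LFC of Igfbp5 was 0.39 (SE 0.065, adjusted p = 0.000769 by edgeR), or 1.31-fold, and it was 0.31 without WT replicate 2. The ratio of Igfbp2 to Igfbp5 per length was 4.74 to 6.14 in WT and 5.40 to 5.80 in the knockout, so the knockout range lay within the WT range.

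Igfbp3, which encodes the main IGF carrier of blood plasma, also rose. It had 151, 140 and 137 CPM in WT and 175, 192 and 182 CPM in the knockout. The lowest knockout library exceeded the highest WT library, WT replicate 1. The LFC was 0.36 (SE 0.056, adjusted p = 0.000496 by edgeR), or 1.28-fold. Igfbp1, its neighbour on chromosome 11 at a distance of 3539 bases, had 1 count in knockout replicate 3 and 0 counts in the other 5 libraries. It was under the floor of 3 counts in every library, and no fold change was computed for it.

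Igfbp7 rose by the largest factor of the 5 called genes. Its protein binds IGFs weakly, is deposited in vessel walls and basement membrane and lacks the carboxy-terminal domain of the classical binding proteins. It had 15.7, 21.4 and 16.6 CPM in WT and 25.9, 29.0 and 26.3 CPM in the knockout. Here WT replicate 2 was the highest WT library, and it still lay below all 3 knockout libraries. The LFC was 0.62 (SE 0.108, adjusted p = 0.00109 by edgeR), or 1.53-fold, and it was 0.74 without WT replicate 2. Exons of Igfbp7 overlap those of Polr2b on the opposite strand, and 4.57% of the 31-base words of its transcripts are shared with that gene, so some reads may be assigned to either if strand was not used. Polr2b itself had 201 ± 3.09 CPM (WT) and 195 ± 7.30 CPM (knockout) and was not called (adjusted p = 0.558 by edgeR). None of the other 7 genes has an exon overlap in the annotation.

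Igfbp4 was the 1 binding protein gene of the 6 tested that was called lower. Its protein is known mainly as an inhibitor of IGF action and as the substrate of pappalysin. It had 32.4, 31 and 29.7 CPM in WT and 21.9, 19.6 and 22.0 CPM in the knockout. The 3 libraries of each genotype lay close together, with a wide gap between the groups. The level was 1.47-fold lower in the knockout, an LFC of -0.55 (SE 0.079, adjusted p = 0.000232 by edgeR). Of the 31-base words in its transcripts, 6.18% also occur in transcripts of other genes.

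Igfbp6, whose protein prefers IGF2 over IGF1, was the least abundant of the 8 genes. It had 28, 22 and 26 counts in WT replicates 1, 2 and 3 and 42, 32 and 64 counts in the knockout, or 1.05, 1.71 and 1.41 CPM against 2.58, 1.78 and 2.27 CPM. The highest WT library and the lowest knockout library, both replicates 2, differed little. The LFC was 0.72 (SE 0.27) and did not pass the threshold (adjusted p = 0.0631 by edgeR). It passed without WT replicate 2, at 0.87 with an adjusted p of 0.0311 by edgeR, and its adjusted p-values over all alternatives were 0.0311 to 0.236.

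**Figure D2:**
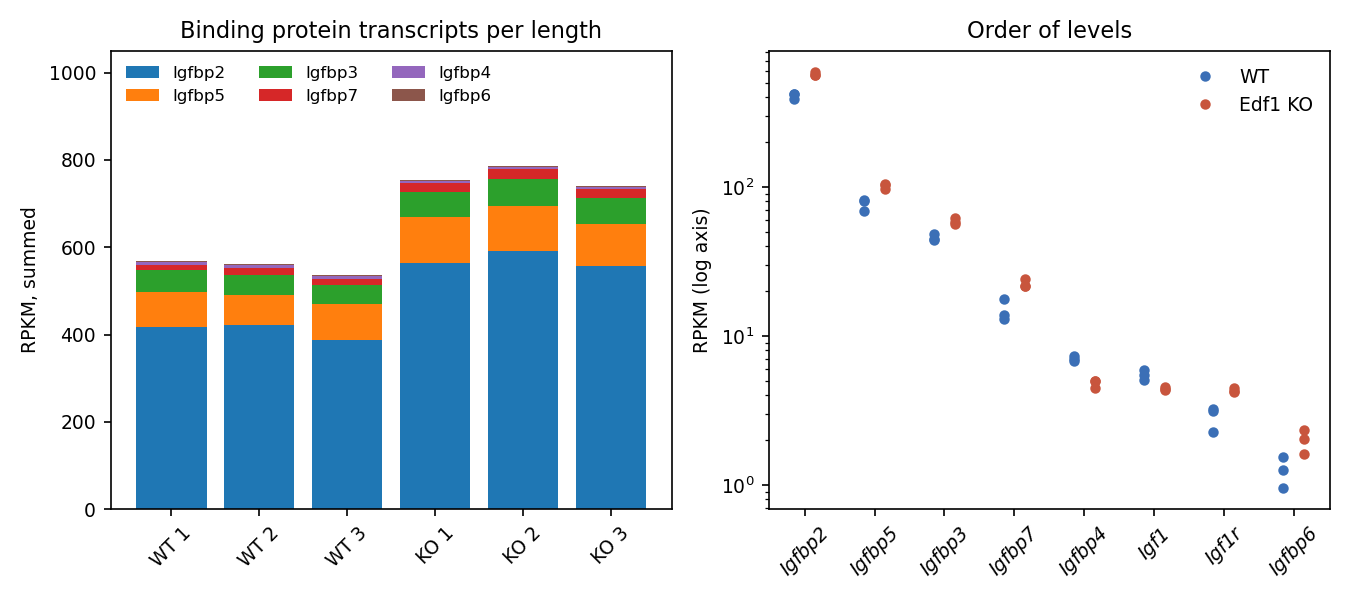
Left: CPM per kilobase of exon (RPKM) of the 6 binding protein genes stacked for each library. Right: RPKM of the 8 genes on a log axis, 1 point per library, ordered by their mean. The stacks are 536 to 568 in WT and 741 to 786 in the knockout, and Igfbp2 makes up most of each.

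Levels of different genes were compared per length, as RPKM from CPM and the exon length of each gene. Igfbp2 stood at 409 RPKM in WT and 572 RPKM in the knockout, above 99.7% of the 14101 tested genes with a known length on the mean of the 6 libraries. Igfbp5 followed with 77.2 and 101 RPKM, Igfbp3 with 45.5 and 58.5 RPKM and Igfbp7 with 14.8 and 22.4 RPKM. These 4 genes kept the same order in every library, without overlap between neighbours in either genotype. The lower part of the order differed between the genotypes. In WT, Igfbp4 (6.73 to 7.34 RPKM) lay above Igf1 (5.04 to 5.91 RPKM), and Igf1 above Igf1r (2.27 to 3.25 RPKM), each without overlap. In the knockout, Igfbp4 (4.44 to 4.99 RPKM), Igf1 (4.34 to 4.51 RPKM) and Igf1r (4.23 to 4.45 RPKM) overlapped with their neighbours. Igfbp6 was lowest in both, at 1.25 and 1.99 RPKM.

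The summed level of the 6 binding protein genes was 555 ± 16.9 RPKM in WT and 760.3 ± 23.3 RPKM in the knockout (SD, n = 3 each). Igfbp2 made up 73.7% ± 1.32 of this sum in WT and 75.2% ± 0.25 in the knockout, which differs by about the spread between the WT libraries. The share of Igfbp5 was 13.9% ± 1.55 and 13.3% ± 0.51, and that of Igfbp3 8.20% ± 0.26 and 7.69% ± 0.23. Igfbp4 made up 1.25% to 1.29% of the sum in the WT libraries and 0.56% to 0.67% in the knockout libraries. The sum was 90.8 to 111 times the Igf1 level in WT and 164 to 181 times in the knockout, on the same scale. Against Igf1r it was 165 to 248 times in WT and 169 to 184 times in the knockout, so these ranges overlapped. These sums and ratios are descriptions and were not tested.

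**Figure D3:**
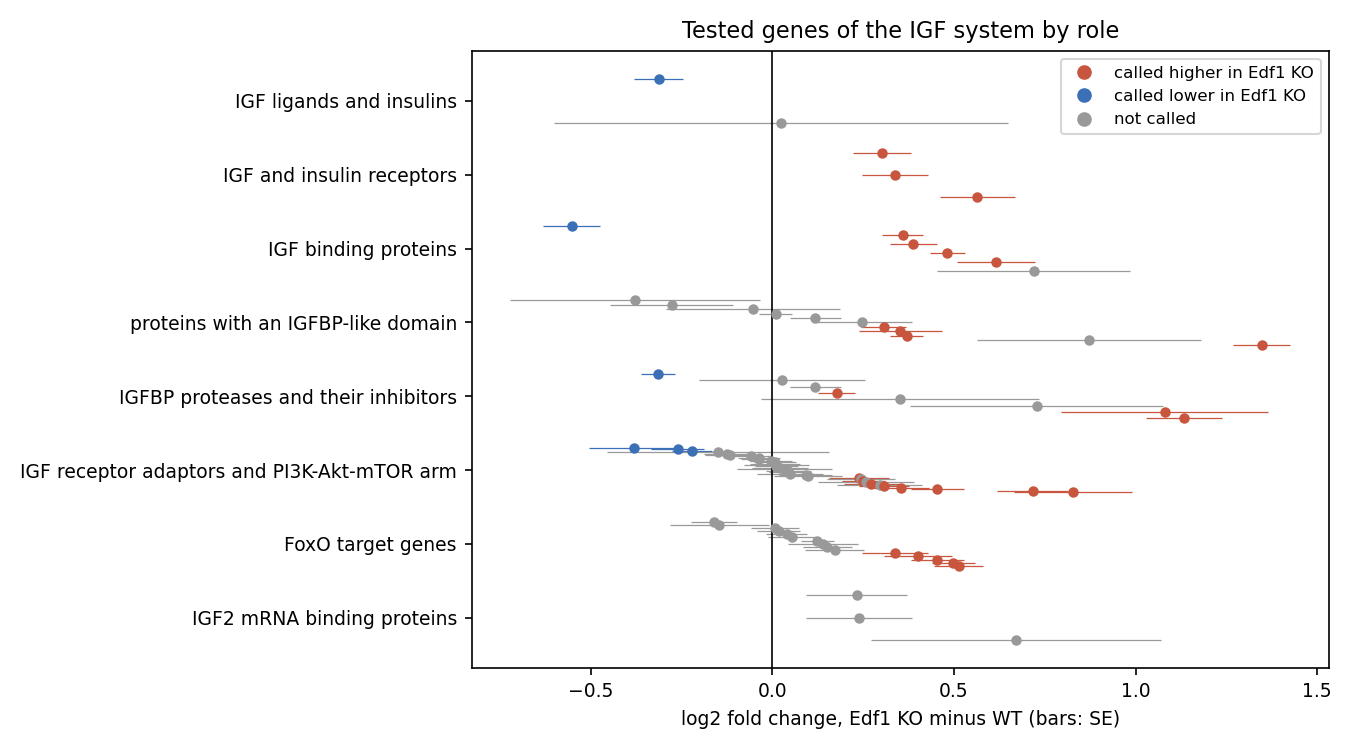
LFC (x axis, log2 scale, knockout minus WT, with SE bars) of each tested gene in 8 lists of the IGF system; colour gives the call in edgeR's test. All 3 tested receptors lie to the right of 0, and Igfbpl1 lies farthest right at 1.35.

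Other genes of the IGF system were taken from 8 lists by role, which share a few genes. Outside the 8 members they hold 79 genes, of which 69 were tested, 20 called higher, 4 called lower and 45 not called. Their median LFC was 0.12, beside 0.0029 over all tested genes. These 24 calls among 69 genes stand beside calls for 26.9% of all tested genes.

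The list of proteins that carry an IGFBP-like domain had 4 genes called higher and 0 lower of 11 tested, with a median of 0.25; the other 7 did not pass (edgeR). Igfbpl1, a secreted IGFBP-like protein known from neural progenitors, showed the largest change. It rose from 23.9, 29.2 and 27.4 CPM in WT to 66.8, 71.4 and 64.9 CPM in the knockout, with a wide gap between the groups. The LFC was 1.35 (SE 0.078, adjusted p = 2.77e-07 by edgeR), or 2.54-fold. Ccn1, a matricellular protein, rose by 0.37 on the log2 scale (SE 0.045), from 259 ± 4.08 to 335 ± 9.61 CPM. Its relative Ccn5 was called at 0.35 (SE 0.115, adjusted p = 0.0386 by edgeR), but the genotypes overlapped and the call was lost in 6 of 15 alternatives.

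Among proteases that cleave binding proteins, and their inhibitors, 3 of 8 tested genes were called higher and 1 lower, with a median of 0.26. Mmp2, a matrix metalloproteinase, rose (11.6 ± 1.56 CPM in WT, 25.3 ± 2.05 CPM in the knockout), an LFC of 1.13 (SE 0.105, adjusted p = 7.53e-06 by edgeR). Pappa, which encodes the pappalysin that cleaves the proteins of Igfbp4 and Igfbp5, rose (1.10 ± 0.45 CPM in WT, 2.40 ± 0.32 CPM in the knockout), an LFC of 1.08 (SE 0.29, adjusted p = 0.0142 by edgeR). Its counts were few, 8 to 31 in WT and 37 to 76 in the knockout, and it no longer passed when knockout replicate 3 was left out (0.98, adjusted p = 0.0722 by edgeR). Ctsd, a lysosomal protease, fell (3087 ± 125 CPM in WT, 2483 ± 71.9 CPM in the knockout), an LFC of -0.31 (SE 0.046). Exons of Ctsd overlap those of an annotated gene on the same strand, so its counts are less certain. Adam9, a membrane metalloproteinase, was called at 0.18 (SE 0.051), and this call was lost in 5 of 15 alternatives. The pappalysin inhibitor genes were low: Stc2 had 0.73 ± 0.38 CPM (WT) and 1.24 ± 0.12 CPM (knockout) and was not called, and Stc1 had too few counts to be tested.

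Downstream of the receptor, the list of adaptors and the PI3K-Akt-mTOR arm had 8 genes called higher and 3 lower of 32 tested, with a median of 0.038. Both main adaptors of the IGF and insulin receptors were among those that rose. Irs1 rose from 50.2, 35.2 and 45.6 CPM in WT to 75.3, 72.1 and 70.2 CPM in the knockout, an LFC of 0.72 (SE 0.099, adjusted p = 0.000174 by edgeR). WT replicate 2 was its lowest library, as it was for Igf1r. Irs2 rose (131 ± 14.9 CPM in WT, 180.3 ± 5.68 CPM in the knockout), an LFC of 0.45 (SE 0.072). Grb10, an imprinted adaptor known to dampen signalling by these receptors, rose (3.40 ± 0.19 CPM in WT, 6.14 ± 0.81 CPM in the knockout), an LFC of 0.83 (SE 0.16, adjusted p = 0.00234 by edgeR). Exons of Irs1 and Irs2 overlap non-coding or predicted genes on the opposite strand, which makes their counts less certain if strand was not used.

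The 3 genes called lower in this arm lost their calls in several alternatives. Grb14, a relative of Grb10, had an LFC of -0.38 (SE 0.12), Pik3r2, a regulatory subunit of PI3K, one of -0.26 (SE 0.073), and the kinase gene Akt2 one of -0.22 (SE 0.055). The calls were absent in 8, 3 and 3 of 15 alternatives. For 21 tested genes of the arm, among them Akt1 and Mtor, the test was not passed (edgeR). Akt1 had 171 ± 4.78 CPM (WT) and 167 ± 4.92 CPM (knockout), and Mtor had 102 ± 3.34 and 103 ± 5.14 CPM; these genes were named after their values were seen.

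FoxO factors are held in check by Akt, and 15 genes known as their targets were tested. Of these, 5 were called higher and 0 lower, with a median of 0.14, and 10 did not pass (edgeR). Beside them, 26.9% of all tested genes were called in either direction. The activity of Akt and of FoxO factors was not measured. The largest rises were those of Fbxo32, a ubiquitin ligase subunit, at 0.51 (SE 0.068), Txnip, a thioredoxin inhibitor, at 0.50 (SE 0.059) and Irs2. Irs2 and Insr belong to this list as well as to those above. None of the 3 genes for IGF2 mRNA binding proteins was called in edgeR's test: Igf2bp1 had an LFC of 0.67 (SE 0.40), Igf2bp2 of 0.23 (SE 0.14) and Igf2bp3 of 0.24 (SE 0.15), with adjusted p-values of 0.241, 0.242 and 0.254. Exons of Fbxo32, Txnip, Pik3r2, Igf2bp1 and Igf2bp3 overlap other annotated genes on the opposite strand, and their counts are uncertain if strand was not used. Igf2bp1 also overlaps a gene on its own strand, so its counts are less certain with either setting, and the same holds for Igf2, which overlaps a gene on each strand.

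For each called member, the genes with the most similar profile were sought among 12888 others, by the root mean square difference of log2 CPM over the 6 libraries after centring each gene on its mean. Igfbp5 was closest to the endocytic adaptor gene Dab2 and to Trp53inp1, both at 0.017. The nearest profiles to Igfbp2 were those of Nabp2 at 0.018 and Xbp1, a transcription factor of the unfolded protein response, at 0.020. Igf1 was nearest to Cracd (0.025) and to the hexokinase gene Hk2 (0.027), and Igfbp4 to Ssx2ip (0.027) and Unc93b1 (0.034). Igf1r lay closest to Met, which encodes another receptor tyrosine kinase (0.039), and to the cyclin gene Ccnd2 (0.044). Skap2 (0.032) and Cntf (0.034) came closest to Igfbp3. For Igfbp7 the smallest differences, to LOC118567621 (0.074) and the nucleotide receptor gene P2ry2 (0.075), were larger. With so many candidates and 6 libraries, some likeness is found for any gene, and nothing is drawn from it about shared function. Exons of Nabp2, Dab2, Ccnd2 and Cntf overlap those of other genes, and Cracd and LOC118567621 were not found by symbol in the annotation.

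**Figure D4:**
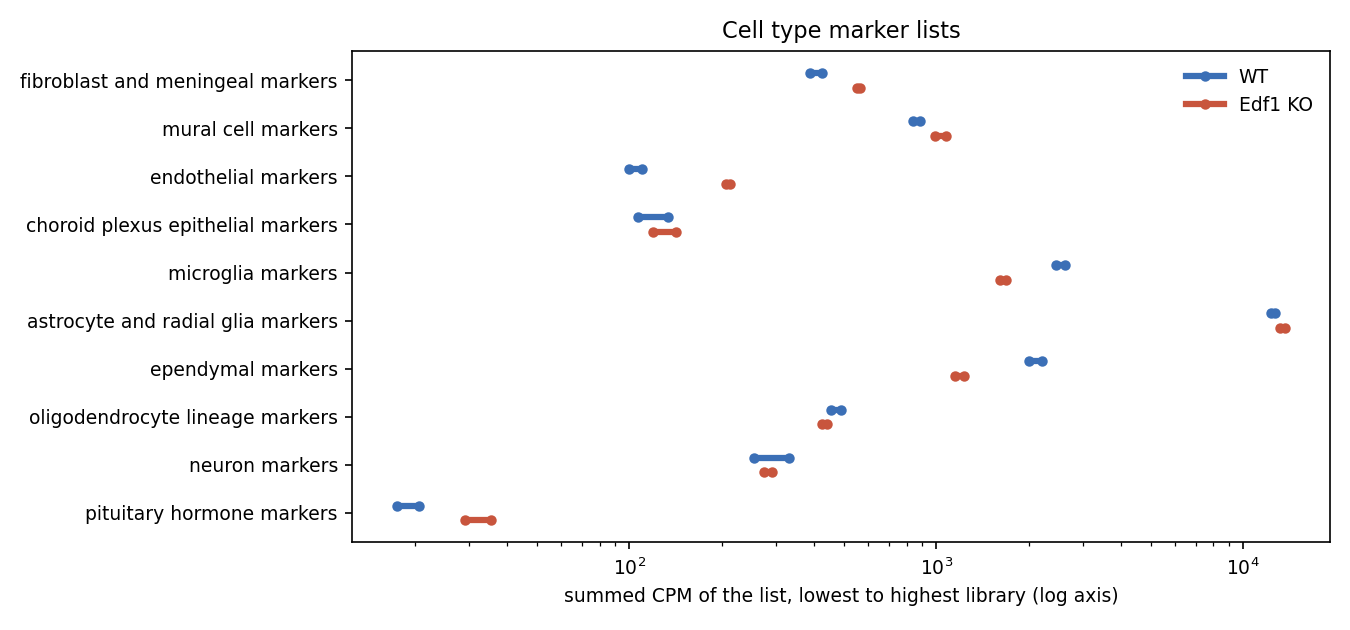
Summed CPM of 10 cell type marker lists (log axis), from the lowest to the highest library of each genotype. In the astrocyte and radial glia list the largest part of the sum is Vim, which was not called. The sums do not overlap for 8 of the lists: microglia, ependymal and oligodendrocyte sums are lower and fibroblast, mural, endothelial, astrocyte and pituitary sums higher in the knockout, the endothelial sum mostly through Kdr; choroid plexus and neuron sums overlap.

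Markers of several other cell types also differed between the genotypes, in either direction, and their part in the results was not tested. Microglia are known to make Igf1 in the newborn brain. Of 14 microglia markers, 12 were called lower and 0 higher, with a median LFC of -0.61, none of the markers was at 0, and their summed level was 2457 to 2624 CPM in WT and 1616 to 1682 CPM in the knockout. The LFC of Igf1 was -0.31, beside the microglia median of -0.61. Without 1 library Igf1 was at -0.36 to -0.25 and the microglia median at -0.65 to -0.56. With a correction for GC content and length, chosen after seeing the data, the 2 values were -0.47 and -0.48.

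Fibroblasts, mural cells and endothelium are known sources of Igfbp3, Igfbp5 and Igfbp7 in other tissues. Of 11 tested fibroblast and meningeal markers, 7 were called higher and 0 lower, with a median LFC of 0.80 and sums of 387 to 425 CPM in WT and 551 to 566 CPM in the knockout. Ogn, the most abundant of them, rose (256 ± 11.5 CPM in WT, 343 ± 26.0 CPM in the knockout), and Islr stood at 56.2 ± 0.89 and 55.8 ± 0.76 CPM. Mural markers had 5 of 7 tested genes called higher and 0 lower (median 0.29). Their sums were 843 to 883 CPM in WT and 993 to 1075 CPM in the knockout. Most of these sums came from Acta2 (475 ± 19.0 CPM in WT, 586 ± 21.9 CPM in the knockout) and Tagln (288 ± 10.0 and 331 ± 16.5 CPM). Myh11, at an LFC of -0.76 (SE 0.47), and Anpep, at 0.026 (SE 0.11), were not called. The pericyte genes Rgs5, Kcnj8 and Abcc9 had too few counts to be tested. Of 10 endothelial markers 7 were too low to be tested. Kdr (38.1 ± 3.16 CPM in WT, 127 ± 2.16 CPM in the knockout) and Slco1c1 (55.0 ± 1.49 and 77.8 ± 0.74 CPM) were called higher and Flt1 (11.3 ± 0.65 and 3.81 ± 0.28 CPM) lower. These 3 genes make up nearly all of the summed level, 99.8 to 110 CPM in WT and 207 to 212 CPM in the knockout, so the sum is not a level of endothelium as a class, and Cdh5, Pecam1 and Cldn5 each averaged under 1 CPM in both genotypes.

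Choroid plexus, a known site of Igfbp2 and Igf2 expression, showed no common movement of its markers. Of 5 tested genes 1, Otx2, was called higher (0.68) and 0 lower, and the sums overlapped, at 107 to 133 CPM in WT and 119 to 142 CPM in the knockout. Astrocyte and radial glia markers, of cells that also make Igfbp2, had 3 of 14 genes called higher and 1 lower (median 0.065), with sums of 12299 to 12724 CPM in WT and 13209 to 13719 CPM in the knockout. The largest part of these sums was Vim, at 6273 ± 334 CPM (WT) and 6849 ± 142 CPM (knockout). Vim was not called (adjusted p = 0.0723 by edgeR). Oligodendrocyte markers had 1 of 7 tested genes called higher and 1 lower, and neuron markers had 0 higher and 2 lower of 8. Oligodendrocyte sums were 452 to 491 CPM in WT and 423 to 441 CPM in the knockout. Pituitary hormone genes were present at low levels and moved both ways, with 3 of 4 tested genes called higher and 1 lower (edgeR), while Fshb was at 0 in every library. Lhb, the most abundant of them in WT, fell (14.7 ± 1.30 CPM in WT, 5.59 ± 0.53 CPM in the knockout). Pomc rose (3.50 ± 0.54 CPM in WT, 13.3 ± 4.16 CPM in the knockout), and Prl was at 0 in all 3 WT libraries and at 8.85 ± 3.85 CPM in the knockout. Cga also rose, from 0.12 ± 0.070 CPM in WT to 2.61 ± 0.61 CPM in the knockout. Gh, too low to be tested, had 0 counts in the WT libraries and 10 to 15 in the knockout libraries. The list summed to 17.5 to 20.6 CPM in WT and 29.1 to 35.5 CPM in the knockout.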

How the data were processed

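RNA was extracted with TRIzol and sequenced from MGIEasy mRNA libraries, per the labels' protocols. What was deposited is a table of raw read counts, whole numbers by gene symbol with 1 column per library. Per the submitters' processing notes, FastQC 0.11.2, cutadapt 1.11 and HISAT2 2.1.0 were used with the build GRCm38; the counting program, its annotation and its use of strand are not given in the sources used here.

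Genes were filtered with filterByExpr of edgeR 4.0.16 in R 4.3.3, which left 14243 of 22851 genes. Edf1 KO was tested against WT with TMM factors and edgeR's quasi-likelihood test on all 6 libraries with no covariate, p-values adjusted by Benjamini-Hochberg across every tested gene, called below 0.05. CPM are on TMM-scaled totals of tested genes, log2 CPM used a prior count of 2, and SE is the absolute LFC over the root of the F statistic. RPKM divide CPM by the merged exon length from GENCODE M21. Promoters came from RefSeq (GRCm38.p6). The fits were tested on simulated data. The planted changes were larger than those of the called members and in a far smaller share of genes than was called here. That test therefore does not speak for the members' calls.

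The members and lists were chosen with earlier results of these data known. Genes named singly are the 8 members, Edf1, the tested ligand, receptor, binding protein and IGF2 mRNA binding protein genes, the up to 3 largest called rises and falls in each other IGF list, the up to 4 most abundant markers of a list and those at 0, and the 2 nearest profiles of each called member, among genes with a mean log2 CPM of at least 1; others named were chosen after their values were seen. Alternatives were DESeq2 size factors, DESeq2 1.42.0, limma 3.58.1 voom, unscaled library sizes and a filter on a mean of at least 50 counts. Others were a filter keeping genes with at least 1 count summed over the libraries, and leaving out each library. The rest were a block for the replicate number, a threshold of 0.01 and a correction for GC content and transcript length. That correction was chosen after seeing the data. The floor of 3 counts covers counting error only. The labels call the libraries biological replicates.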

Additional observations from a re-analysis of the deposited data

How the results depend on the processing

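The calls of Igf1, Igf1r, Igfbp2, Igfbp3, Igfbp4, Igfbp5 and Igfbp7 kept their direction and stayed past the threshold in all 15 alternatives, with log2 fold changes of -0.47 to -0.25 for Igf1, 0.43 to 0.65 for Igf1r, 0.45 to 0.52 for Igfbp2, 0.32 to 0.41 for Igfbp3, -0.58 to -0.50 for Igfbp4, 0.31 to 0.44 for Igfbp5 and 0.53 to 0.74 for Igfbp7. The lowest value of Igf1, -0.47, came with the GC and length correction. Igfbp6 passed under the GC and length correction (0.77, adjusted p = 0.0349 by edgeR); with 1 library left out its values were 0.52 to 0.87, and it passed without WT replicate 2. It could not be tested with a mean of at least 50 counts.

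The 3833 changed genes became 2213 at a threshold of 0.01, of which 965 were higher and 1248 lower, and 2658 to 4340 without 1 library. In the IGF lists outside the members, 24 genes were called, 14 at a threshold of 0.01 and 15 to 26 without 1 library, with the fewest without knockout replicate 1. Igf2 was below 0 with limma voom (-0.42), with the replicate block (-0.20) and under the GC and length correction (-0.034), with values of -1.19 to 0.60 without 1 library. Medians that changed sign were those of the ligand list (-0.75 to 0.14 without 1 library), the PI3K-Akt-mTOR arm (-0.029 with the GC and length correction), choroid plexus markers (0.031 with a mean of at least 50 counts, 0.015 with the GC and length correction, -0.34 to 0.095 without 1 library) and oligodendrocyte markers (-0.019 to 0.15 without 1 library). The microglia median moved to -0.48 with the GC and length correction and was -0.65 to -0.56 without 1 library. The cause was not tested. Of 788 values of single genes and list medians, 722 were counted as unchanged, 41 lost the call, 14 changed sign and 11 moved. For single genes only direction and call were compared, not size. For list medians direction was compared, and size against the spread.

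With the replicate block 4065 genes were called, 3683 of which are among the 3833, and the members' calls were the same. Deviations from the group means correlated by 0.069, 0.060 and 0.037 between libraries of the same number, so no pairing was assumed. Low counts limit Igf2, Igf2bp1, Igfbp6, Pappa and Stc2 among the tested genes of the IGF lists that are named. They left others, such as Igfbp1, Insrr, Stc1 and the insulin genes, untested.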
